A study of Mus musculus with 12 samples.

Results

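The comparison set 4 whole-kidney RNA libraries from mice with a Grhl2 knockout and Myc overexpression against 3 from mice labelled only as Myc overexpression. These 7 libraries were chosen by their labels from the 12 of the series. The labels give the knockout animals as offspring of a HoxB7-Cre carrier with 1 floxed Grhl2 allele (Grhl2flox/+) and a carrier of the Cre-activated Myc transgene, R26StopFLMYC, with both Grhl2 alleles floxed (Grhl2flox/flox). HoxB7-Cre acts in the ureteric bud lineage, which forms the collecting duct, so the driver limits both changes to a part of the organ, while RNA of the entire right kidney was sequenced. Library identifiers of the Myc group hold the letters HET, but no source used here gives the group's cross or its Grhl2 alleles. The other 5 libraries, labelled wildtype, carry R26StopFLMYC and Grhl2 flox/flox with no Cre stated. No group had the knockout without Myc, so knockout and transgene cannot be separated within the 4 kidneys. Age is not given, and no source used here says that libraries of 1 group came from separate animals. The p-values therefore rest on the spread between libraries, estimated over all 12.

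Grhl2 encodes a transcription factor of the Grainyhead family, which is expressed in epithelia and opens and activates enhancers of genes for cell junctions, polarity and membrane traffic. Its preferred DNA site is a pair of inverted half-sites. In the kidney it is expressed in the ureteric bud and its derivatives, the collecting duct and connecting segments, where principal cells take up water and sodium and intercalated cells move acid and base. The purpose of the comparison, as the series title has it, is the part that Grhl2 plays in the growth of renal cysts, and overexpression of Myc in tubule epithelium is known to give cystic kidneys in mice.

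Total gene counts ranged from 70608817 to 101043826 in the Myc libraries and from 75187006 to 108164810 in the knockout libraries. Ribosomal RNA models took 5.55% of the counts in Myc 1 and 0.16% to 0.581% in the other 11. Knockout libraries 3 and 4 stood apart in a proximal tubule score (mean centred log2 CPM of 30 markers), at -0.95 and -0.80 against 0.05 and 0.26 in knockout libraries 2 and 1 and 0.05 to 0.42 in the Myc libraries. Levels of Ddx3y, on the Y chromosome, were 62.8 to 78.5 CPM in Myc 3, knockout 1 and knockout 4 and 0 to 1.33 CPM in the other 4 libraries. Knockout 3 had neither Ddx3y (0 CPM) nor Xist (0.21 CPM). Of the 200 genes called below, 155 kept their call with a term for Y-linked expression, 163 with the proximal tubule score as a term and 200 without the ribosomal RNA models.

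Grhl2 transcripts were lower in the knockout kidneys and still present in all of them. Grhl2 (ENSMUSG00000022286.16, mm10 chromosome 15, 37233036 to 37363569) was at 28.5, 33.1 and 28.2 CPM (counts scaled to a common library size) in the Myc libraries and at 18.5, 19, 24.3 and 22.3 CPM in the knockout libraries, without overlap. The means were 29.9 ± 2.71 (SD, n = 3) and 21 ± 2.78 CPM (SD, n = 4), a 1.42-fold fall (log2 fold change -0.51, SE 0.104, adjusted p = 0.0443 by edgeR's quasi-likelihood test with Benjamini-Hochberg adjustment over 23742 genes). This call is weak: the adjusted p ran from 0.0244 to 0.21 when each library was left out in turn, and passed the threshold of 0.05 in 3 of those 12 fits. A gene count also sums reads outside the floxed part, and 3 antisense models overlap Grhl2 in these unstranded libraries, so the value is not a measure of deletion. In a whole organ, fewer cells of a type and less RNA per cell cannot be told apart.

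The other Grainyhead factors did not pass the main test. Grhl1 was at 6.77 ± 0.297 CPM in Myc and 7.18 ± 1.15 CPM in knockout kidneys (adjusted p = 0.826). Grhl3, a close relative known from skin and bladder epithelium, was at 3.69, 2.83 and 4.04 CPM in the Myc libraries and at 7.24, 5.40, 8.85 and 4.25 CPM in the knockout libraries (log2 fold change 0.87, SE 0.253, adjusted p = 0.152). It passed with DESeq2 and with the replicate number as a block (adjusted p = 0.0232 and 0.0114), and in none of the 12 fits with 1 library left out. The groups did not overlap for Grhl3, which holds for 16.8% of all tested genes. Counts on the mouse Myc gene were 23.6 ± 4.25 CPM in Myc and 30.1 ± 2.23 CPM in knockout kidneys (adjusted p = 0.42). In wildtype kidneys they were 26.7 ± 6.06 CPM, so the Myc group was not above wildtype (log2 fold change -0.18, adjusted p = 0.999). No source used here says whether transcripts of the transgene are counted on this gene.

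Across the genome 200 of 23742 tested genes passed, 0.842% in all: 85 were higher in the knockout kidneys (0.358%) and 115 lower (0.484%). Of these, 33 of the higher and 53 of the lower genes differed at least 2-fold. For all 200 the 3 Myc and 4 knockout values did not overlap, which held for 3999 of all tested genes (16.8%). The calls come from the same values, so this adds no separate support. The median log2 fold change over all tested genes was 0.0023. At an unadjusted p under 0.05 there were 3161 genes. The number of calls turned on single libraries: it was 70 without Myc 2, 78 without Myc 1, 88 without Myc 3, 91 without knockout 4, 111 without knockout 3, 123 without knockout 2 and 703 without wildtype 4, a library outside the comparison that enters the shared estimate of the spread. Of the 200 genes, 58 (47 lower, 11 higher) were called in all 12 of these fits.

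**Figure D1:**
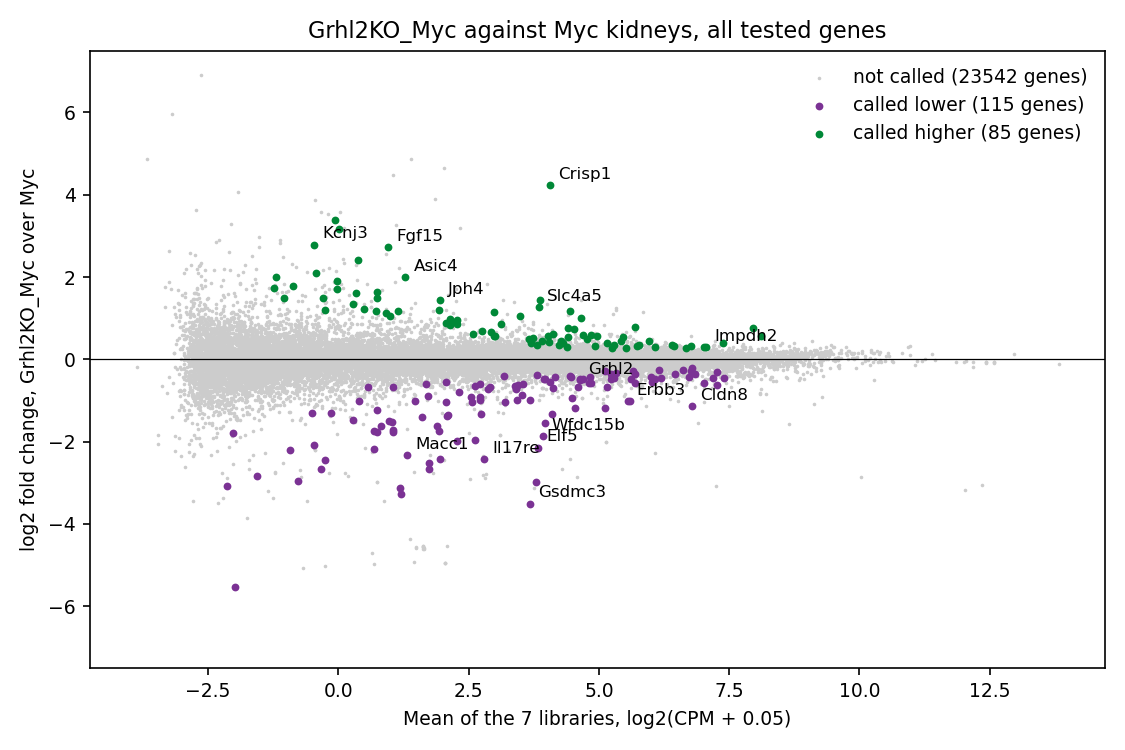
Log2 fold change (knockout with Myc over Myc) against mean expression of the 7 libraries for all 23742 tested genes, with the 115 genes called lower in purple and the 85 called higher in green. Crisp1 lies highest among the named genes at 4.24 and Gsdmc3 lowest at -3.51, while Grhl2 lies at -0.51.

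Promoters of the genes called lower held the looser Grainyhead site more often than all promoters did, as a description with no test. The consensus AACCGGTT and the looser AACCNGTT were searched on both strands in RefSeq promoter windows (GRCm38.p6) of 300 bases, from 250 before the start to 50 after, and each match to the first is also a match to the second. A window was matched for 14157 of the 23742 tested genes, 67 of the 115 lower and 58 of the 85 higher. AACCNGTT was found in 9 of 67 lower genes (13.4%), 1 of 58 higher genes (1.72%) and 341 of 14157 tested genes (2.41%). AACCGGTT was in none of the called genes' windows and in 36 of all (0.254%). Among genes with at least 1.5-fold change the looser site was in 6 of 34 lower genes (17.6%) and 1 of 34 higher ones (2.94%). A match is a run of letters, not a shown site of binding.

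The 7 sites below are those of the lower genes with a full gene name, shown 5′ to 3′ on the strand of the gene with the match in capitals. AACCTGTT is the motif as written, and AACAGGTT is the same motif read from the opposite strand. They are shown so that the matches counted above can be read.
Rab25 (chr3:88548364-88548391, minus): gcagacacctAACCTGTTtaacctgtct
Cgn (chr3:94786494-94786521, minus): cctggggagtAACAGGTTggtgggcggg
Muc1 (chr3:89228866-89228893, plus): atggagaaaaAACAGGTTgtcataaggt
Frem2 (chr3:53657528-53657555, minus): cattccaaccAACCTGTTgcacctctct
Stap2 (chr17:56005580-56005607, minus): actccccaggAACCTGTTtatccacttc
Gsta3 (chr1:21240383-21240410, plus): ctctgcttggAACAGGTTcttccagctt
Wfdc15b (chr2:164221658-164221685, minus): agccttgaaaAACAGGTTttgtggggac
The match began 102 bases before the start of Rab25, 29 before that of Cgn, 180 before that of Muc1 and 190 before that of Frem2. It began 9 bases after the start of Stap2, 192 before that of Gsta3 and 12 before that of Wfdc15b. Frem2, Stap2 and Gsta3 fall outside the rule for named genes and are given for their match. They fell by 0.58, 0.59 and 0.99 on the log2 scale (adjusted p = 0.0228, 0.00571 and 0.00573). The windows of Elf5, Il17re, Macc1, Arhgef19, Dsp and Ovol2 held no AACCNGTT, which says nothing of sites elsewhere. Cldn8, Erbb3 and Grhl2 had no matched window.

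The stretch before the start of Rab25, which encodes a small GTPase of epithelial recycling endosomes, is shown whole because the gene was called in all 12 fits with 1 library left out (GRCm38.p6, chr3:88548280-88548529, minus strand, match in capitals).
Rab25: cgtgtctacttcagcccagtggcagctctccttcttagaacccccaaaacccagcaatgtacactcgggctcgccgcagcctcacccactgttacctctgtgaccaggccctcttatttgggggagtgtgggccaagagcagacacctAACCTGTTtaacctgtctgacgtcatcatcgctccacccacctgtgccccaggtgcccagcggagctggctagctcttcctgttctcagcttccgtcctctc

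Among 14 transcription and splicing regulators of epithelia, 2 fell, none rose and the median log2 fold change was -0.08. Over all tested genes 0.484% fell and 0.358% rose. Elf5, an ETS factor of epithelial cells, had the smallest adjusted p of all genes. It was at 22.4, 26.9 and 27.1 CPM in the Myc libraries and at 5.15, 4.94, 6.76 and 6.13 CPM in the knockout libraries. No knockout library came near the Myc range. The means were 25.4 ± 2.68 (SD, n = 3) and 5.75 ± 0.85 CPM (SD, n = 4), a 4.42-fold fall (log2 fold change -2.15, SE 0.114, adjusted p = 4.55e-06).

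Ehf, another ETS factor, lies beside Elf5 on chromosome 2 (mm10, 103263433 to 103303278 against 103411688 to 103450989) and was not lower. Ehf was at 44.7, 57.9 and 56.4 CPM in the Myc libraries and at 71.5, 65.5, 80.7 and 70.4 CPM in the knockout libraries, without overlap (log2 fold change 0.44, SE 0.0935, adjusted p = 0.0511). Its rise was called in 4 of 12 other analysis settings and in 1 of the 12 fits with 1 library left out. Per kilobase of gene model, the mean level of Elf5 was 4.33 RPKM (CPM divided by the model's length in kilobases) in Myc and 0.978 in knockout kidneys, and that of Ehf was 9.51 and 12.9.

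Ovol2, a zinc finger repressor that keeps cells epithelial, fell from 1.30 ± 0.092 to 0.521 ± 0.154 CPM (log2 fold change -1.30, SE 0.221, adjusted p = 0.0167). Its call was lost without any 1 Myc library or without knockout 4. Its relative Ovol1 was at 14.4 and 12 CPM (adjusted p = 0.334). Esrp1, which directs epithelial splicing, was at 38.7 and 31.0 CPM (adjusted p = 0.279).

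Of 23 adhesion and junction genes linked to Grhl2 in other epithelia, 3 fell, beside 0.484% of all tested genes, and none rose. The median log2 fold change was -0.10, with 19 below 0. Cldn8, the claudin that seals tight junctions of the distal nephron and duct, was at 144.7, 168.2 and 166.4 CPM in the Myc libraries and at 73.6, 79.7, 79.5 and 56.6 CPM in the knockout libraries. This was a 2.21-fold fall (log2 fold change -1.14, SE 0.123, adjusted p = 0.000843). Dsp, encoding desmoplakin of the desmosome, was at 61.4, 64.2 and 64.8 CPM against 40.4, 39.6, 48.4 and 40.9 CPM (log2 fold change -0.58, adjusted p = 0.00226). Cgn, encoding cingulin of the tight junction plaque and with a motif match printed above, was at 54.8, 58.8 and 60.1 CPM against 43.0, 40.5, 43.8 and 40.1 CPM (log2 fold change -0.47, adjusted p = 0.00264). These 3 genes separated the groups clearly and were called in each of the 12 fits with 1 library left out.

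The best-known junction genes of the same list did not pass the main test. Cdh1, encoding E-cadherin, was at 232.3 ± 5.21 CPM in Myc and 225.1 ± 12.1 CPM in knockout kidneys, with overlapping libraries (log2 fold change -0.05, SE 0.0561, adjusted p = 0.76). Cldn4 was at 61.7 ± 4.11 and 55.1 ± 6.16 CPM (adjusted p = 0.475). Epcam, an epithelial adhesion molecule, lay just outside the threshold at 211, 216 and 197 CPM against 171, 168, 172 and 172 CPM (adjusted p = 0.0508, log2 fold change -0.29, SE 0.0601). Epcam was called in 6 of 12 other analysis settings and in 2 of the 12 fits with 1 library left out. Among members singled out after their values were seen, Prom2 had the lowest log2 fold change of the list (-1.30, adjusted p = 0.14) and Cldn7 and Cldn3 the highest (both 0.32, adjusted p = 0.0603 and 0.489).

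Of 21 genes for vesicle traffic and signalling linked to Grhl2, 4 fell, beside 0.484% of all tested genes, and none rose. The median log2 fold change was -0.31, with 18 below 0. Leaving out 1 library at a time gave 4 to 8 lower members, and leaving out both knockout libraries 3 and 4 gave 4. Rab25, whose upstream stretch is printed above, was at 13.4, 16.5 and 16.6 CPM in the Myc libraries and at 8.91, 8.98, 8.44 and 7.59 CPM in the knockout libraries (log2 fold change -0.87, SE 0.0982, adjusted p = 0.00103). Erbb3, the neuregulin receptor partner of ErbB2, was at 62.2, 74.7 and 61.2 CPM against 32.8, 34.2, 35.0 and 28.7 CPM, a 2.02-fold fall (log2 fold change -1.02, SE 0.0923, adjusted p = 0.000282). The 4 knockout values of each gene lay close together and far from the Myc values.

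Arhgef19, encoding a guanine nucleotide exchange factor, was at 22.9, 28.4 and 27.0 CPM against 9.36, 11.2, 10.8 and 10.5 CPM, a 2.50-fold fall (log2 fold change -1.32, SE 0.126, adjusted p = 0.000291). Macc1, a regulator of the hepatocyte growth factor receptor gene, was at 3.91, 4.80 and 4.83 CPM against 1.16, 0.786, 1.22 and 0.447 CPM, a 5.01-fold fall (log2 fold change -2.33, SE 0.263, adjusted p = 0.00103). All 4 genes were called in each of the 12 fits with 1 library left out. The motor Myo5b, which pulls recycling vesicles, was at 117 and 87.0 CPM and did not pass (log2 fold change -0.43, adjusted p = 0.0865). It was named after its value was seen.

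**Figure D2:**
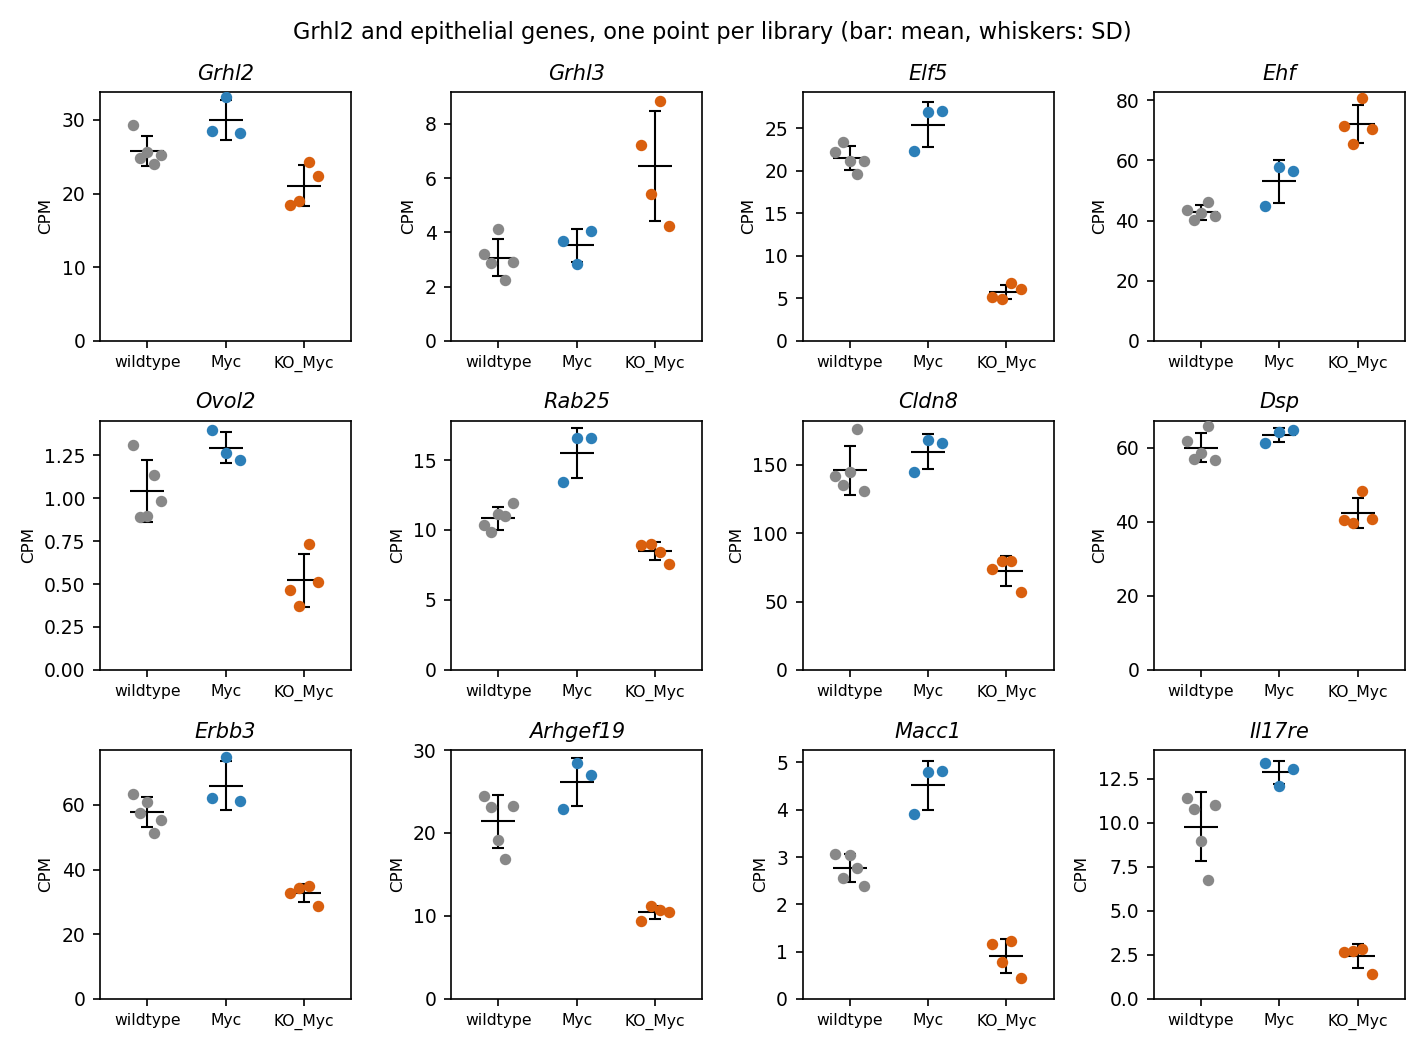
CPM of Grhl2, Grhl3, Elf5, Ehf, Ovol2, Rab25, Cldn8, Dsp, Erbb3, Arhgef19, Macc1 and Il17re in each library of the wildtype, Myc and knockout with Myc (KO_Myc) groups, with the mean as a bar and the SD as whiskers. The 4 knockout points lie below all 3 Myc points in every panel but those of Grhl3 and Ehf, where they lie above, and Elf5 falls from 25.4 to 5.75 CPM.

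None of 12 membrane serine proteases and their inhibitors passed, with a median log2 fold change of -0.32. Prss8, encoding the prostasin that activates the epithelial sodium channel, was at 133 and 94.1 CPM (adjusted p = 0.188), and Tmprss4 was at 0.601 and 0.122 CPM (adjusted p = 0.0579). Of 5 interleukin-17 receptor genes 1 fell, beside 0.484% of all tested genes. Il17re, the epithelial receptor chain for interleukin-17C, was at 13.4, 12.1 and 13.1 CPM in the Myc libraries and at 2.69, 2.71, 2.85 and 1.41 CPM in the knockout libraries, a 5.35-fold fall (log2 fold change -2.42, SE 0.227, adjusted p = 0.000291). Every knockout value lay far below the narrow Myc range. Il17ra, the chain it pairs with, was named after its value was seen, at 12.2 and 10.7 CPM (log2 fold change -0.19, adjusted p = 0.491).

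Of 20 principal cell genes 2 fell, beside 0.484% of all tested genes, and none rose. The median log2 fold change was -0.09, with 9 above 0 and 11 below. Avpr2, the vasopressin receptor that signals water uptake, was at 14.9, 15.1 and 14.7 CPM in the Myc libraries and at 8.09, 5.85, 8.83 and 7.02 CPM in the knockout libraries. This was a 2.00-fold fall (log2 fold change -1.0, SE 0.11, adjusted p = 0.000904). Aqp4, a basolateral water channel, was at 30.5, 35.0 and 37.4 CPM against 11.6, 11.4, 21.6 and 16.1 CPM (log2 fold change -1.18, SE 0.199, adjusted p = 0.0167), a call lost without Myc 2, Myc 3 or knockout 4. Aqp2, the vasopressin-regulated apical water channel that defines principal cells, was at 314, 437 and 325 CPM against 373, 249.8, 345 and 346 CPM, with overlap (log2 fold change -0.13, SE 0.253, adjusted p = 0.861). The sodium channel subunit genes Scnn1a, Scnn1b and Scnn1g, named after their values were seen, had log2 fold changes of -0.27, -0.06 and 0.27 and did not pass.

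Of 19 measured intercalated cell genes, 18 had a log2 fold change below 0 (median -0.48). None rose and 4 fell, beside 0.484% of all tested genes. The count ran from 1 to 8 with 1 library left out and was 1 without knockout libraries 3 and 4. Within the knockout and wildtype groups the list's score was lowest where the proximal tubule score was low. It was -0.01, -0.19, -0.36 and -0.46 in knockout libraries 1 to 4 and 0.26 to 0.42 in the Myc libraries. It was -0.62 in wildtype 4, and -0.02 to 0.25 in wildtype libraries 1, 2, 3 and 5. Knockout libraries 1 and 2 lay below all Myc libraries here. Their proximal tubule scores (0.26 and 0.05) lay within the Myc range (0.05 to 0.42). With the proximal tubule score as a term 4 members were called lower, Atp6v1c2 and Atp6v0d2 not among them. Aqp6, a channel of intracellular vesicles in acid-secreting cells, was at 8.55, 7.97 and 8.68 CPM in the Myc libraries and at 2.66, 1.77, 1.94 and 2.06 CPM in the knockout libraries (log2 fold change -1.99, SE 0.246, adjusted p = 0.00176), and missed the threshold without knockout libraries 3 and 4 (adjusted p = 0.0616). Spink8, a Kazal-type protease inhibitor gene, was at 16, 19.7 and 19.8 CPM against 13.2, 12.9, 13.6 and 13.5 CPM (log2 fold change -0.48, adjusted p = 0.0167).

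The proton pump subunit genes Atp6v1c2 and Atp6v0d2 fell by 0.55 and 0.47 on the log2 scale and only just passed (adjusted p = 0.0473 and 0.048). Their calls stood in 3 and 2 of the 12 fits with 1 library left out. Foxi1, the factor that specifies intercalated cells, was at 30.7, 38.5 and 56.0 CPM against 36.3, 29.6, 41.6 and 34.8 CPM, with overlap (log2 fold change -0.23, SE 0.17, adjusted p = 0.594). The adjusted p of Slc4a1, encoding the anion exchanger of acid-secreting cells, was 0.283 (log2 fold change -0.80), and that of Slc26a4, encoding the exchanger pendrin of base-secreting cells, was 0.899 (log2 fold change -0.10). Both were named after their values were seen.

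The largest falls among named genes were in the gasdermin C cluster, whose members encode pore-forming proteins of epithelia. The 4 measured members lie side by side on chromosome 15 between 63775968 and 63912297. All 4 fell, beside 0.484% of all tested genes, with a median log2 fold change of -3.06. The list was chosen with earlier results of these data known, so the count adds no separate support. Gsdmc3 was at 11.7, 36.1 and 31.6 CPM in the Myc libraries and at 3.12, 3.25, 2.03 and 0.986 CPM in the knockout libraries (log2 fold change -3.51, SE 0.516, adjusted p = 0.00675). Gsdmc2 was at 12.7, 38.4 and 31.0 CPM against 4.98, 5.01, 2.76 and 1.20 CPM (log2 fold change -2.98, SE 0.538, adjusted p = 0.0257). Myc 1 was lowest of the Myc libraries for each of these genes, and knockout 4 lowest of the knockout libraries. Gsdmc4 and Gsdmc had log2 fold changes of -3.13 and -2.96 (adjusted p = 0.0156 and 0.0149). The 4 genes are close copies and reads could be split among them, so their separate values are uncertain. Within the wildtype and knockout groups their summed level was lowest where proximal tubule markers were low. It was 9.23 CPM in wildtype 4 against 27.5 to 37.6 CPM in the other wildtype libraries. It was 9.02, 9.09, 5.34 and 2.52 CPM in knockout libraries 1 to 4 against 27.0 to 81.9 CPM in the Myc libraries. Wildtype 4 thus lay at the level of knockout libraries 1 and 2. The proximal tubule scores of knockout libraries 1 and 2 (0.26 and 0.05) lay within the Myc range (0.05 to 0.42). Their gasdermin C sums lay below all Myc libraries. All 4 genes kept their call with the proximal tubule score as a term. Of the 4, Gsdmc3 alone kept its call in all 12 fits with 1 library left out, and none kept it when knockout libraries 3 and 4 were both left out.

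Other strong falls were in genes of varied function. Myo3b, a class III myosin gene, was at 6.71, 8.33 and 6.48 CPM against 1.55, 1.56, 0.928 and 1.28 CPM (log2 fold change -2.44, SE 0.283, adjusted p = 0.0012). Wfdc15b, encoding a small secreted protein with a whey acidic protein domain, was at 24.5, 28.7 and 24.5 CPM against 8.86, 8.68, 5.74 and 5.08 CPM (log2 fold change -1.87, SE 0.173, adjusted p = 0.000282). Mlph, which tethers Rab27 vesicles to a myosin, fell from 3.37 ± 0.579 to 1.02 ± 0.217 CPM (log2 fold change -1.73, adjusted p = 0.000843). Bglap3, of the osteocalcin family, fell from 2.81 ± 0.215 to 0.622 ± 0.219 CPM (log2 fold change -2.19, adjusted p = 0.000986). These 4 genes were called in each of the 12 fits with 1 library left out. Ces1d, a carboxylesterase gene, Rbbp8nl, and Atp10b, encoding a lipid flippase, fell by 2.44, 2.68 and 1.74 on the log2 scale (adjusted p = 0.0167, 0.0437 and 0.0475). Their calls stood in 8, 2 and 2 of those fits.

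The rise of Crisp1 was the largest among named genes. Crisp1, known as a secreted protein of the epididymis, was at 1.32, 1.35 and 1.77 CPM in the Myc libraries and at 20.6, 28.5, 36.8 and 25.9 CPM in the knockout libraries. The means were 1.48 ± 0.254 (SD, n = 3) and 28 ± 6.78 CPM (SD, n = 4), an 18.8-fold rise (log2 fold change 4.24, SE 0.278, adjusted p = 2.88e-05). It was far above the Myc range in each of the 4 knockout kidneys.

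Slc4a5, Asic4, Kcnj3 and Jph4 also rose. Slc4a5, an electrogenic sodium bicarbonate cotransporter gene, was at 7.31, 9.15 and 7.34 CPM against 17.3, 19.5, 20.7 and 18.8 CPM, a 2.41-fold rise (log2 fold change 1.27, SE 0.102, adjusted p = 0.000157). Asic4, of the acid-sensing ion channel family, was at 0.723, 0.975 and 0.925 CPM against 2.79, 3.85, 4.01 and 3.40 CPM (log2 fold change 2.01, SE 0.175, adjusted p = 0.000258). The antisense model Gm37264 overlaps Asic4 and rose too, so their unstranded reads cannot be told apart. Kcnj3, a G protein-gated potassium channel gene, rose from 0.151 ± 0.038 to 1.06 ± 0.382 CPM (log2 fold change 2.79, SE 0.419, adjusted p = 0.00773). Jph4, of the junctophilins that join the plasma membrane to the endoplasmic reticulum, rose from 1.93 ± 0.204 to 5.23 ± 0.589 CPM (log2 fold change 1.44, SE 0.169, adjusted p = 0.00131). Crisp1, Slc4a5, Asic4 and Jph4 were called in each of the 12 fits with 1 library left out, and Kcnj3 in 10.

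Further named genes rose. Fgf15, a hormone-like growth factor gene best known from the ileum, was at 0.415, 0.33 and 0.577 CPM against 1.73, 2.47, 3.13 and 4.50 CPM (adjusted p = 0.00598, log2 fold change 2.73, SE 0.394), and it too overlaps an antisense model that rose, Gm26793. Abi3bp, an extracellular matrix gene, was at 6.48, 9.55 and 6.0 CPM against 11.8, 16.9, 30.3 and 21.2 CPM (log2 fold change 1.45, adjusted p = 0.0274). Lgals7, encoding galectin-7 of stratified epithelia, rose from 0.798 ± 0.088 to 2.25 ± 0.425 CPM (log2 fold change 1.49, adjusted p = 0.00645). Others among the 15 largest rises were in Ugt2b35, Spock1, Ppp2r2c, Vwa5b1 and Npy6r, with log2 fold changes of 3.39, 2.42, 2.10, 1.70 and 1.63. Each of these rested on levels under 4 CPM. They were called in 6, 4, 10, 7 and 6 of the 12 fits with 1 library left out. Fgf15, Abi3bp and Lgals7 were called in 11, 8 and 10 of those fits.

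**Figure D3:**
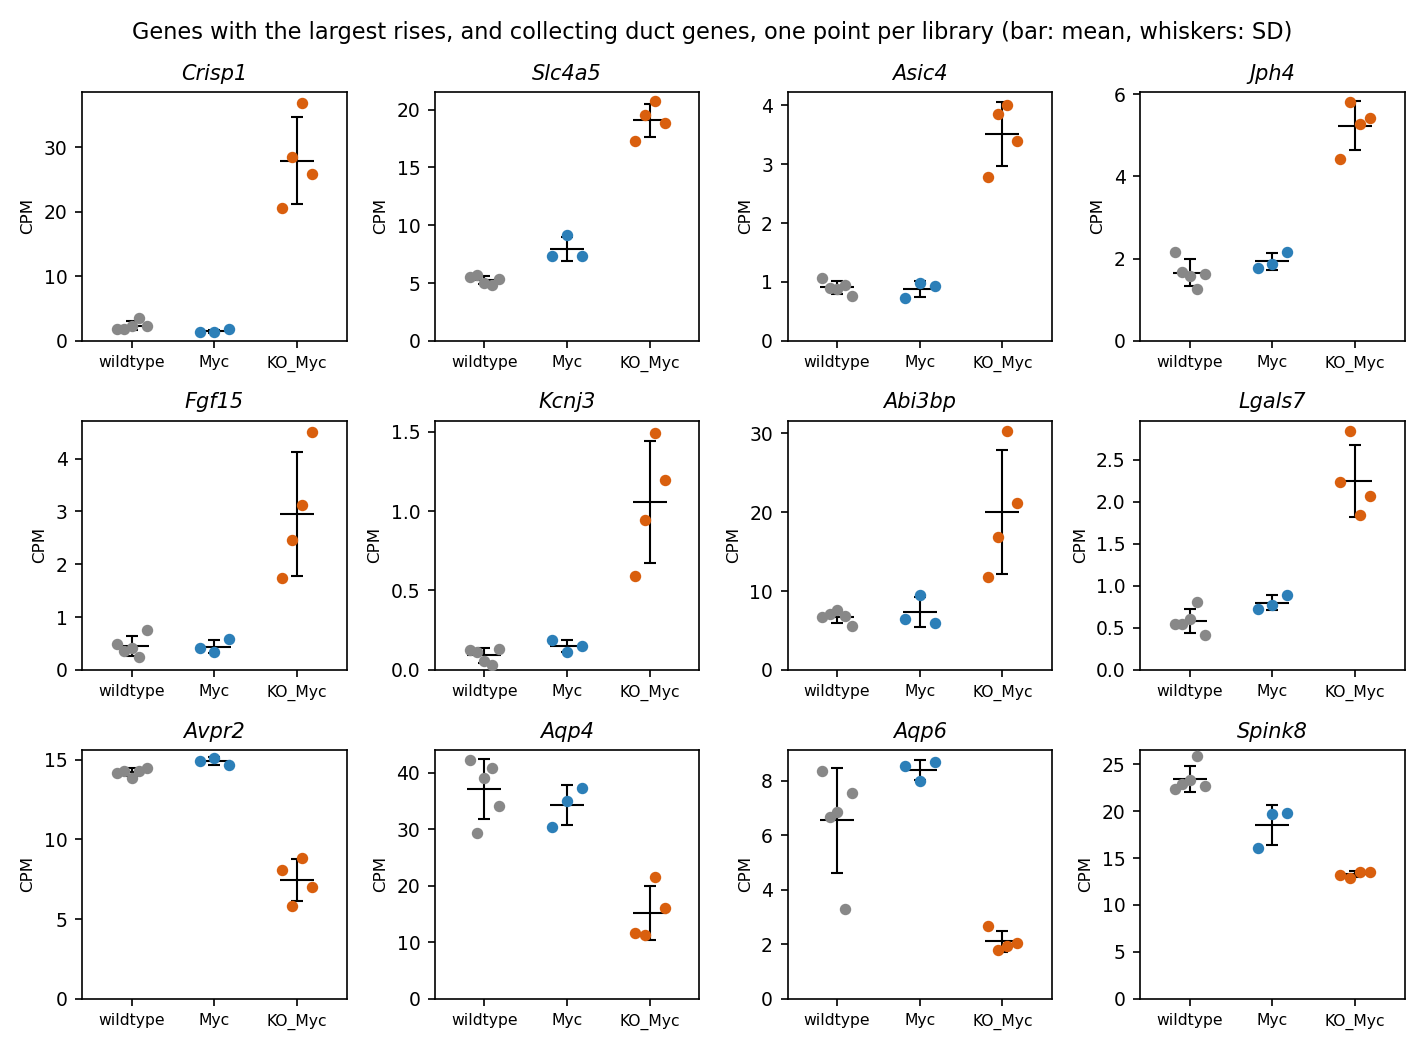
CPM of 8 genes that rose (Crisp1, Slc4a5, Asic4, Jph4, Fgf15, Kcnj3, Abi3bp, Lgals7) and 4 duct genes that fell (Avpr2, Aqp4, Aqp6, Spink8) in each library, with the mean as a bar and the SD as whiskers. Crisp1 lies at 20.6 to 36.8 CPM in the 4 knockout libraries against 1.32 to 1.77 CPM in the 3 Myc libraries.

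Among growth genes that Myc is known to activate, few passed the test, and those that did rose. Of 32 ribosome biogenesis genes 3 rose, beside 0.358% of all tested genes. All 32 had a log2 fold change above 0, with a median of 0.25 beside 0.0023 for all tested genes. Ddx21, a nucleolar RNA helicase gene, was at 89.9, 97.0 and 99.7 CPM against 112, 113, 122 and 130.5 CPM (log2 fold change 0.32, SE 0.06, adjusted p = 0.0289). Nolc1, a nucleolar phosphoprotein gene, and Bop1, needed for the large ribosomal subunit, both rose by 0.36 (adjusted p = 0.0355 and 0.048). Of 28 genes for nucleotide and growth metabolism, with a median of 0.21, 3 rose, beside 0.358% of all tested genes. They were Ctps (CTP synthesis), Impdh2 (guanine nucleotide synthesis) and Slc7a5 (leucine uptake), with log2 fold changes of 0.32, 0.30 and 0.45 (adjusted p = 0.0164, 0.0191 and 0.0443). None of 30 cytosolic ribosomal protein genes passed, though all 30 were above 0 (median 0.16). Their summed level was 18420 to 20070 CPM in the Myc and 20730 to 22590 CPM in the knockout libraries. In wildtype 4, the library lowest in proximal tubule markers, it was 22540 CPM, against 15670 to 16940 CPM in the other wildtype libraries. The ribosome biogenesis list summed to 3125 CPM in wildtype 4, below the knockout libraries (3382 to 3931 CPM).

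These small shifts were not equal over the knockout libraries. The mean centred log2 CPM of the ribosome biogenesis list was 0.12, 0.14, 0.24 and 0.33 in knockout libraries 1 to 4 and -0.10, -0.02 and -0.003 in the Myc libraries, so the groups did not overlap and the 2 libraries low in proximal tubule markers were highest. With 1 library left out, 0 to 13 members of that list and 0 to 6 of the nucleotide list were called. Without knockout libraries 3 and 4 none of either was called, in a fit where calls over all genes fell from 200 to 65. With the proximal tubule score as a term 2 and 5 members of these lists were called higher, beside 3 and 3 in the main fit. Of 18 p53 target genes 1 rose, beside 0.358% of all tested genes. It was the exonuclease gene Aen (30.1 to 39.4 CPM, log2 fold change 0.39, adjusted p = 0.0269). None of 30 cell cycle genes passed (median -0.11).

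Genes of cystic disease and kidney development mostly did not pass. Of 20 cystic kidney disease genes 1 fell, beside 0.484% of all tested genes. It was Muc1, encoding the apical mucin 1 and also with a motif match. Muc1 was at 34.7, 36.5 and 34.9 CPM against 23.9, 28.4, 21.8 and 21.5 CPM (log2 fold change -0.57, SE 0.0938, adjusted p = 0.0156). Pkd1 and Pkd2, encoding the polycystins, were at 99.8 and 96.7 CPM (adjusted p = 0.824) and at 163 and 143 CPM (adjusted p = 0.265). Pkhd1, encoding fibrocystin, was at 65.6, 72.0 and 63.1 CPM against 50.7, 44.5, 38.0 and 37.7 CPM, without overlap but short of the threshold (log2 fold change -0.65, SE 0.253, adjusted p = 0.289). Without wildtype 4, whose Pkhd1 level of 27.4 CPM lies far below the other wildtype libraries, both Pkd2 and Pkhd1 passed.

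Of 19 ureteric bud and nephron development genes 1 fell, beside 0.484% of all tested genes. Lhx1, a homeobox gene of the developing nephron and duct, was at 90.1, 73.1 and 73.6 CPM against 51.2, 50.9, 53.8 and 60.0 CPM (log2 fold change -0.55, SE 0.097, adjusted p = 0.0226), a call kept in 6 of the 12 fits with 1 library left out. None of 15 Notch genes, 16 genes of cyclic AMP and fluid secretion, 20 mesenchymal genes, 19 tubular injury genes, 19 urothelial genes or 11 keratins passed. Their median log2 fold changes were -0.07, -0.04, 0.01, 0.22, 0.15 and 0.28. Havcr1 and Lcn2, the injury markers of the tubule, were at 0.644 and 0.72 CPM and at 10.7 and 11.7 CPM (adjusted p = 0.881 and 0.684).

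Markers of other kidney cell types moved with some of these results, and apart from the proximal tubule score their part in them was not tested. None of 30 proximal tubule genes passed, but 26 were below 0 (median -0.56) and their summed level was 3472 to 4673 CPM in the Myc and 1530 to 3948 CPM in the knockout libraries. The loop of Henle list (15 genes, median -0.28) and the distal convoluted and connecting tubule list (17 genes, median -0.39) were also mostly below 0, with 14 and 15 members there and none called. Medians were -0.14 for 20 podocyte genes, -0.05 for 20 endothelial genes, -0.05 for 20 fibroblast genes, 0.16 for 10 smooth muscle genes, 0.15 for 20 macrophage genes, 0.01 for 12 lymphocyte genes, 0.19 for 8 adrenal genes and -0.16 for 10 blood genes, with none called. The 24 interferon response genes had a median of 0.27 and a score of 0.82 in knockout 2 against -0.50 to -0.08 in the other 6 of the 7 libraries. The 9 adipose genes had a median of -1.11 and summed to 183 to 240 CPM in Myc and 195 to 223 CPM in knockout kidneys. Ribosomal RNA models had a median of -3.05, and of -0.16 without Myc 1. When the fit held the proximal tubule score as a term, 276 genes were called, 163 of them among the 200, and Elf5, Crisp1, Cldn8, Erbb3, Il17re and the 4 gasdermin C genes were among those. Of the genes named above, Abi3bp, Atp6v0d2, Atp6v1c2, Bop1, Atp10b and Rbbp8nl lost their call in that fit (adjusted p = 0.0547 to 0.0788), and Epcam and Esrp1 gained one (lower, adjusted p = 0.0084 and 0.0196).

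**Figure D4:**
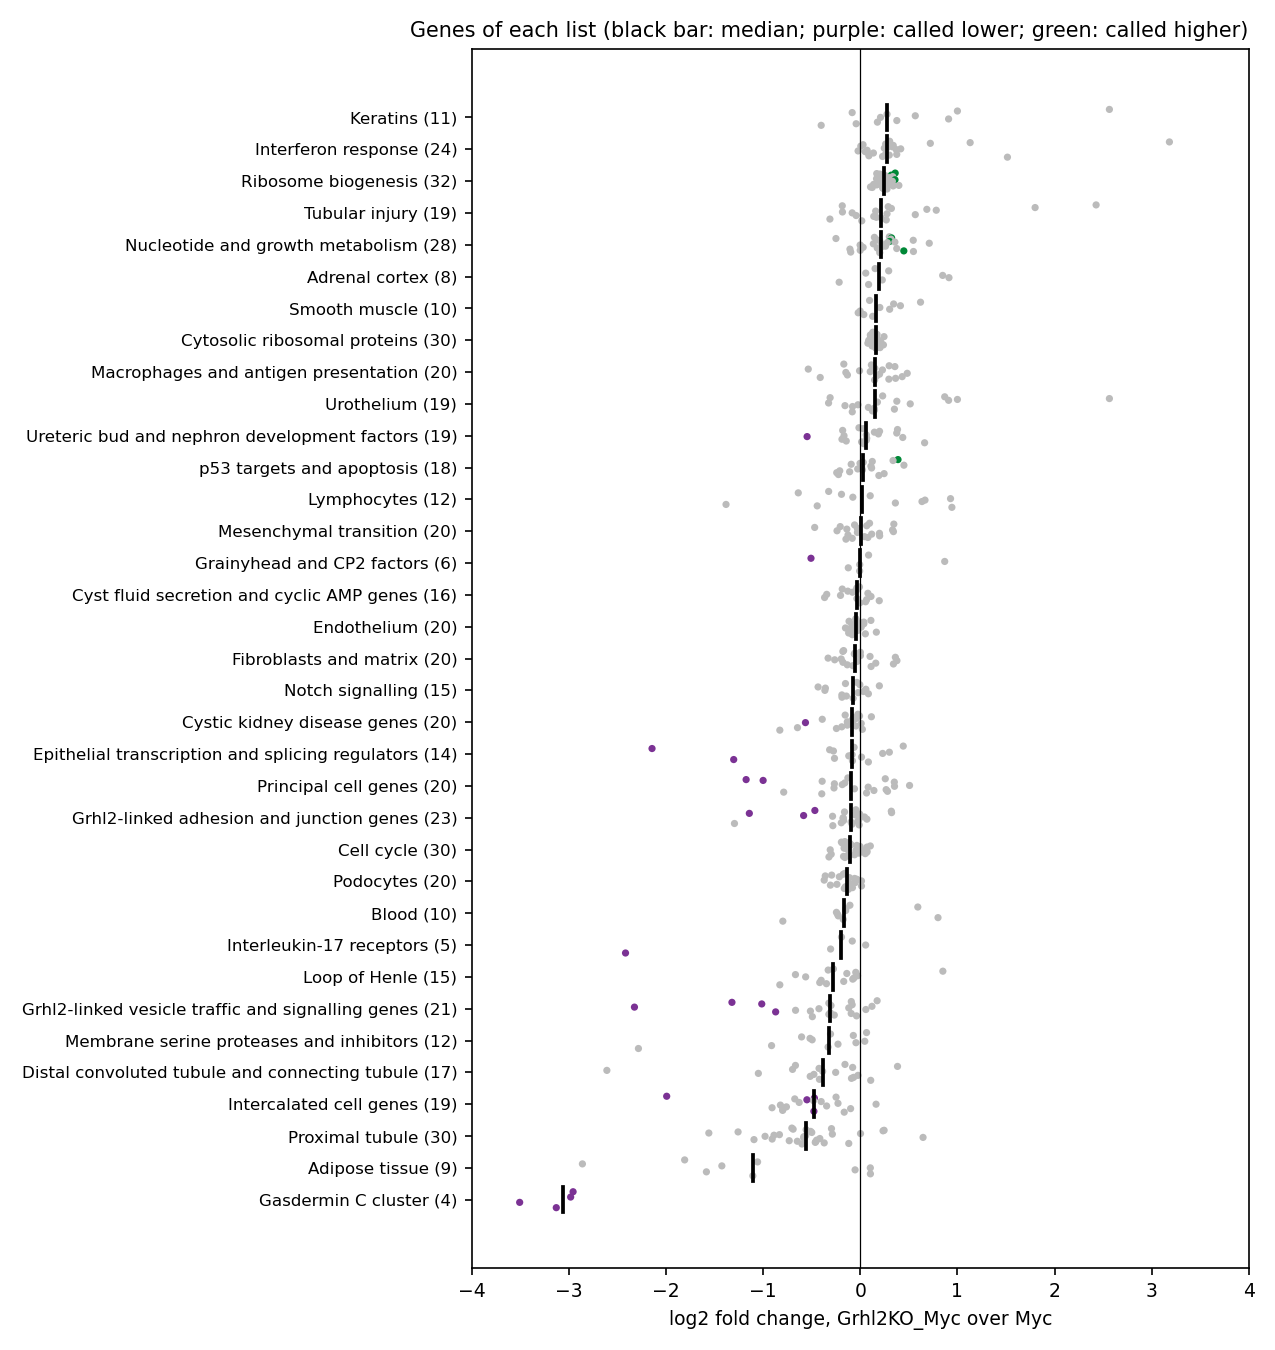
Log2 fold change (knockout with Myc over Myc) of each tested member of 35 gene lists, with the number tested in brackets and the ribosomal RNA list left out. Black bars mark medians, purple points genes called lower and green points genes called higher: the gasdermin C median lies at -3.06, the intercalated cell median at -0.48 and the ribosome biogenesis median at 0.25.

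The wildtype kidneys place these levels, in contrasts that share libraries with the main one and so add no independent support. Knockout with Myc against wildtype gave 1584 calls (6.67% of tested genes) and Myc against wildtype 1 (0.00421%). The 1 gene, named after its value was seen, was the keratin gene Krt4 (log2 fold change 2.65 for Myc over wildtype, adjusted p = 0.0296). Elf5 was at 21.5 ± 1.41 CPM in wildtype kidneys (SD, n = 5), with a log2 fold change of -1.90 for knockout over wildtype (adjusted p = 3.55e-06) and 0.24 for Myc over wildtype (adjusted p = 0.999). Grhl2 was at 25.8 ± 2.04 CPM there, between the other groups, and did not pass against either (log2 fold changes -0.29 for knockout and 0.22 for Myc, adjusted p = 0.0816 and 0.999). Rab25 likewise lay between them at 10.8 ± 0.808 CPM. Its log2 fold change was -0.35 for knockout over wildtype (adjusted p = 0.0327) and 0.52 for Myc over wildtype (adjusted p = 0.276). Atp6v1c2 was at 14.1 ± 1.49 CPM in wildtype and 13.9 ± 1.67 CPM in knockout kidneys, and Atp6v0d2 at 22.5 ± 2.64 and 21.4 ± 0.729 CPM, so for these pump genes the Myc group held the higher means (20.3 and 29.7 CPM), though Myc over wildtype did not pass for either (adjusted p = 0.48 and 0.561). Ehf was at 42.7 ± 2.38 CPM in wildtype kidneys, and knockout over wildtype passed (log2 fold change 0.75, adjusted p = 0.000311).

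By position, the only genes called around the targeted locus were Grhl2 and a model that overlaps it. A shared shift too small to be called was not tested. Of 57 tested genes within 5 Mb of Grhl2, 2 were called, beside 0.842% of all tested genes. They were Grhl2 itself and its overlapping antisense model Gm16136 (log2 fold change -0.72). Of 193 called genes with coordinates, 24 neighbouring pairs lay within 100 kb of each other and 23 of those pairs shared a direction. Of the 24 pairs, 9 overlap and so can share unstranded reads, and 10 others are numbered models on chromosome 4 or gasdermin C genes, among which reads of close copies could be split. The exception was on chromosome 15, where the water channel gene Aqp5 was higher by a borderline call (log2 fold change 1.19, adjusted p = 0.05, called in 2 of the 12 fits with 1 library left out) and Aqp6, 6571 bases away, was lower (-1.99), beside Aqp2, which did not pass. Aqp5 and the pairs were picked out after their values were seen. On chromosome 4, 21 of 1489 tested genes fell (1.41%), beside 0.484% of all tested genes. Of these 21, 7 were left after numbered models and pseudogenes were set aside. The next highest shares were on chromosomes 15 (10 of 807, 1.24%) and 3 (13 of 1132, 1.15%). Over all chromosomes 35 of the 200 called genes were numbered models, clone names or pseudogenes (24 lower, 11 higher). They were set apart by name and type, and whether each has close copies was not tested.

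**Figure D5:**
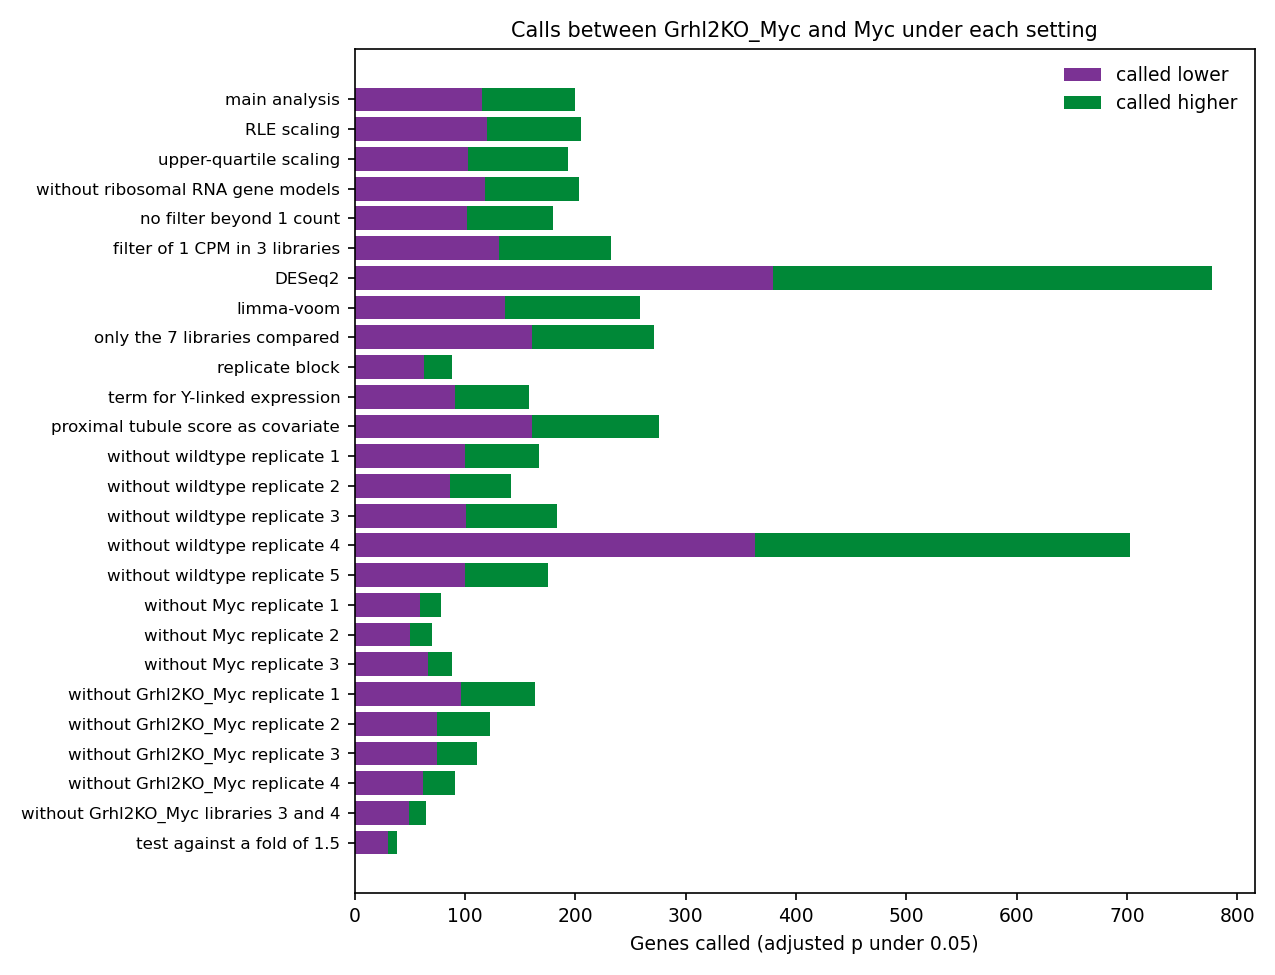
Number of genes called between knockout with Myc and Myc kidneys in the main analysis (200) and under each alternative, split into lower (purple) and higher (green). Counts run from 38 in the test against a fold of 1.5 to 777 with DESeq2, and leaving out wildtype 4 gives 703.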

How the data were processed

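The 12 libraries were prepared from poly(A) RNA of whole right kidneys with the TruSeq RNA v2 kit, per the labels' protocols. Reads were mapped to mm10 with HISAT2, per the submitters' processing notes; no source used here names the counting program. The authors deposited raw read counts per gene (46403 genes) with a gene width, and no column lay outside the series. Gene coordinates are GENCODE M21 (90.6% of IDs matched).

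Counts were tested in R 4.3.3 with edgeR 4.0.16 (default expression filter, TMM scaling, quasi-likelihood F test, 1 coefficient per group over all 12 libraries), with Benjamini-Hochberg adjustment over 23742 genes and calls at an adjusted p under 0.05. The test was checked on simulated data. CPM uses TMM-scaled library sizes; the precision of each value is limited by the 3 and 4 libraries compared and by the depths given above. List scores are means of centred log2 CPM with a prior count of 2. limma 3.58.1, DESeq2 1.42.0, other scalings, filters, covariates and left-out libraries were the alternatives.

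Named genes were the Grainyhead factors Grhl1, Grhl2 and Grhl3, Myc, and 18 set epithelial, duct, cyst and injury genes. To these were added the 15 largest rises and falls among called genes with at least 1 CPM in a group and no overlap between groups, without numbered models, pseudogenes, receptor segments and sex-linked markers, and up to 4 called members of each list. Some genes that this rule names are not reported here. Members and lists were chosen with earlier results of these data known. Replicates of 1 group differed by more than sampling noise (lowest chi-square per degree of freedom 13.5, between knockout libraries 3 and 4), so each was counted as 1 sample.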

Additional observations from a re-analysis of the deposited data

Results flagged for a closer look

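The values of 68 named genes were screened in the 4 knockout and the 5 wildtype libraries for 1 library far from the rest of its group (Dixon's ratio at its 95% critical value). Of 136 groups of values 14 were marked, 5 in knockout and 9 in wildtype libraries, and chance alone marks about 1 group in 20. The 3 Myc libraries are too few for this screen.

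Among knockout libraries, knockout 2 had 167.6 CPM of Epcam against 171.5 to 172.2 in the others, and 3.505 CPM of Spock1 against 1.196 to 1.579. Knockout 4 had 1.406 CPM of Il17re against 2.685 to 2.849, and 102.1 CPM of Nolc1 against 89.9 to 91.28. Knockout 3 had 48.35 CPM of Dsp against 39.64 to 40.85. For Il17re and Dsp the marked library does not decide the call, which stood in every fit with 1 library left out. The call of Spock1 was lost without knockout 2, and that of Nolc1 without knockout 4, as they were without several other libraries (8 and 10 of the 12 fits in all).

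In wildtype 4, the library lowest in proximal tubule markers (score -1.28), 7 genes were marked. Esrp1 was at 46.16 CPM against 31.41 to 35.6 in the other wildtype libraries, Pkd2 at 146.1 against 172.8 to 180.3, and Pkhd1 at 27.36 against 62.76 to 73.08. Myo3b was at 2.735 CPM against 6.015 to 7.007, Cgn at 46.22 against 52.34 to 53.82, Spink8 at 25.86 against 22.4 to 23.37, and Nolc1 at 78.05 against 66.73 to 69.48. In other wildtype libraries, Ugt2b35 was at 0.303 CPM in wildtype 3 against 0.056 to 0.09, and Atp6v0d2 at 17.92 CPM in wildtype 1 against 22.57 to 24.13.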

How the results depend on the processing

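The 200 calls (85 higher, 115 lower) became 777 (398 and 379) with DESeq2, 88 (25 and 63) with the replicate block, 65 (16 and 49) without knockout libraries 3 and 4, and 38 (8 and 30) when tested against a fold of 1.5. With 1 library left out they ranged from 70 to 703 in all, from 19 to 340 higher and from 50 to 363 lower. The lowest totals were without a Myc library, the highest without wildtype 4, and the cause was not tested. Scaling by RLE or the upper quartile, dropping ribosomal RNA models, other filters, limma-voom, the 7 libraries alone, a Y-linked term and the proximal tubule covariate gave 158 to 276 calls. No called gene turned its sign in any of these settings where it was tested.

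Grhl2 did not pass with upper-quartile scaling (log2 fold change -0.50, adjusted p = 0.0526), the 7 libraries alone (-0.51, 0.0701), the replicate block (-0.51, 0.206) or the Y-linked term (-0.49, 0.0676). With 1 library left out its log2 fold change ran from -0.59 to -0.43. The sign turned, with 1 library left out, for 3 genes that were never called: Grhl1 (-0.014 to 0.15), Aqp2 (-0.22 to 0.039) and Foxi1 (-0.41 to 0.035).

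Replicate numbers do not pair the libraries: same-numbered Myc and knockout libraries correlated at -0.01, 0.05 and -0.07 in their deviations from the group means. Of the 200 calls 84 stood with the block. Of the 52 called genes named, 20 stood in all 12 fits with 1 library left out. With 3 Myc libraries, 1 of them high in ribosomal RNA and lowest in gasdermin C genes, differences that miss the threshold are not shown to be absent.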
